A study of Saccharomyces cerevisiae with 9 samples.

Results

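The 50 genes described here encode the proteins of the cytosolic small ribosomal subunit of Saccharomyces cerevisiae. They were chosen by symbol, as RPS followed by a number and, where a second copy of the gene exists, the letter A or B. Of the 56 genes with such a symbol, the rule for choosing members left out the 6 copies of RPS9, RPS14 and RPS22, which were not analysed here. The choice of this gene family was made with earlier results of these data known. Each member was read from its spliced or intronless entry, 50 of the 6952 entries of the table of transcript isoforms. The 50 genes specify 29 proteins, of which 21 have a pair of paralogous genes and 8 have a single gene, among them RPS2, RPS3, RPS12, RPS13, RPS15, RPS20 and RPS31.

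Ribosome footprints, the mRNA stretches that ribosomes shield from nuclease, were counted in 9 libraries of strain W303, 3 each of the wild type (WT), pbp1Δ and pab1Δpbp1Δ. All strains were MATa, shared the W303 mutations in URA3, LEU2, HIS3, TRP1, ADE2 and CAN1, and were grown in rich glucose medium without a drug or other treatment. In pbp1Δ the gene PBP1 was replaced by URA3, and pab1Δpbp1Δ carried the same replacement with PAB1 replaced by kanMX in addition. Pab1 is the poly(A)-binding protein of the cytoplasm, its gene is essential, and loss of the Pab1-binding protein Pbp1 lets cells live without it, so that pbp1Δ is the strain that differs from pab1Δpbp1Δ by PAB1 alone. The methods describe the WT samples as technical replicates of 1 strain and the pbp1Δ samples as 3 isolates. The 3 double mutant isolates had all been built from 1 of the pbp1Δ isolates. The p-values against WT therefore measure a spread that may be technical. The double mutant also grew more slowly than the others, and growth rate and genotype cannot be told apart here.

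The small subunit binds the mRNA, carries the decoding centre and finds the start codon, and its proteins are placed on the 18S rRNA in an order that folds the body of the subunit before the head. Ribosomal protein genes are among the most heavily translated of a growing yeast cell, and they are transcribed together under Rap1, Fhl1, Ifh1 and Sfp1. A ribosome needs 1 copy of nearly every protein, and yeast makes many of them from a pair of genes. A footprint count reflects both the amount of an mRNA and the density of ribosomes on it, and the present data do not separate these. All values are relative to the other footprints of the same library.

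The libraries held between 3149040 and 6903587 counts. PAB1 had 4564 to 5644 normalised counts (counts divided by a size factor common to the 9 libraries) in WT and pbp1Δ, and 0, 3.00 and 0 in pab1Δpbp1Δ. PBP1 had 778 to 813 in WT, 0, 2.97 and 0 in pbp1Δ, and 0 in each pab1Δpbp1Δ library. The 7 genes specific to MATa cells summed to between 7579 and 8818 normalised counts in WT and pbp1Δ and to between 2452 and 3991 in pab1Δpbp1Δ. The 4 genes specific to MATalpha cells summed to between 10.6 and 33.4 in WT and pbp1Δ and to between 82.3 and 123 in pab1Δpbp1Δ. Of these 4, SAG1 ranged from 3.49 to 71.2 and STE3 from 4.23 to 67.5 over the 9 libraries. The pheromone genes MF(ALPHA)1 and MF(ALPHA)2 were at 2.23 or below in every library. The part of these shifts in the results below was not tested. Within the members, the first pbp1Δ library held the highest of the 9 values for 37 of the 50 genes, and the second pab1Δpbp1Δ library held the lowest for 37. The main count of calls and its median are given also without 1 or both of these libraries, and the log2 fold changes of some genes without 1 of them.

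In WT the 50 members took up 5.45%, 5.08% and 4.91% of all counts, and in pbp1Δ they took up 6.27%, 4.82% and 5.13%. In pab1Δpbp1Δ they took up 4.54%, 3.63% and 4.63%. Every pab1Δpbp1Δ library thus lay below all 6 of the others, while pbp1Δ and WT overlapped. As a mean of 3 libraries with its SD, the members held 5.15 ± 0.28% of the WT counts and 5.40 ± 0.76% of the pbp1Δ counts, against 4.27 ± 0.56% of those of pab1Δpbp1Δ. The 95% Wilson interval of a library was narrow, for example 3.61% to 3.64% in the second pab1Δpbp1Δ library, and covers counting error only. For comparison, the 82 large subunit protein genes took up 10.02% to 12.3% in WT and pbp1Δ and 7.19% to 9.33% in pab1Δpbp1Δ.

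**Figure D1:**
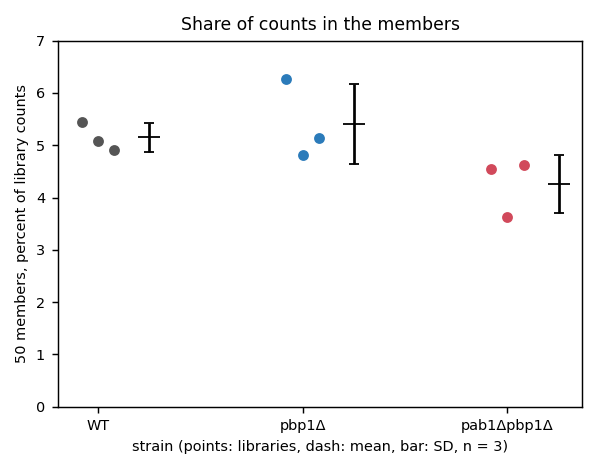
Percent of all counts of a library that fell on the 50 small subunit protein genes, by strain. Points are libraries, and the dash and bar beside them are the mean and SD (n = 3). The 3 pab1Δpbp1Δ libraries lie between 3.63% and 4.63%, below all 6 others, and the highest pbp1Δ library stands at 6.27%.

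The abundance of footprints per transcript length differed about 9.29-fold among the 29 proteins in WT. With the copies of a pair summed, Rps0, a protein of the body that also occurs in bacteria and archaea, stood highest at 5527 ± 226 FPKM (SD, n = 3). It was followed by Rps4 at 5388 ± 237 FPKM, Rps24 at 4971 ± 429.8 FPKM and Rps18 at 4839 ± 144 FPKM. Neighbours in this order did not differ beyond their SD. At the low end were Rps25 at 595 ± 123 FPKM and Rps28 at 709.7 ± 21.2 FPKM, whose spreads also met. The median protein had 2202 FPKM in WT, 2412 in pbp1Δ and 1892 in pab1Δpbp1Δ. The transcript lengths behind FPKM reach beyond the coding region. For all 11 members with no unspliced entry, the effective length exceeded the annotated gene span, so a gene with long untranslated parts, such as RPS28B with an effective length of 868 bases, has an FPKM that understates the density on its coding part.

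**Figure D2:**
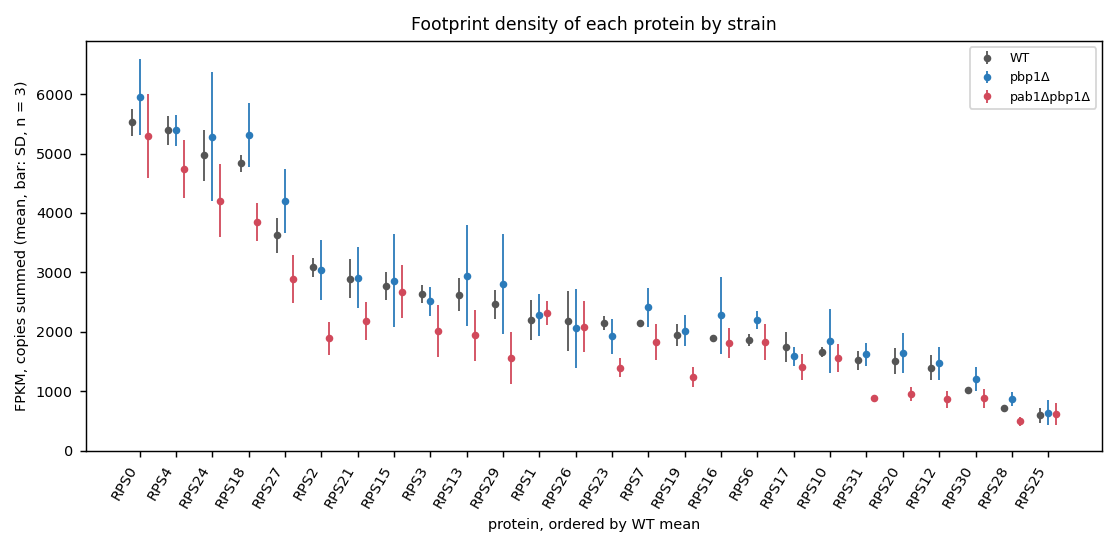
Footprint density of 26 of the 29 proteins in FPKM, with both copies of a paralogous pair summed, ordered by the WT mean. Points are means and bars SD over 3 libraries of each strain. Rps0 is highest with 5527 FPKM and Rps25 lowest with 595 FPKM in WT, and Rps31, Rps20, Rps12 and Rps28 are among the proteins whose pab1Δpbp1Δ points lie below the other strains.

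To ask what the loss of Pab1 changes where Pbp1 is already absent, pab1Δpbp1Δ was compared with pbp1Δ. Footprints on 16 of the 50 members fell and on none rose, by DESeq2 with p-values adjusted over all 5772 entries tested and a threshold of 0.01. Over all entries, 10.2% were lower and 11.1% higher by the same rule, against 32% lower among the members. The log2 fold changes of the members had a median of -0.48 and ran from -1.28 (RPS28B) to 0.12 (RPS25B), and 48 of the 50 were below 0. The median over all tested entries was 0.03. In 28 members, scaled over the 6 libraries compared, all 3 pab1Δpbp1Δ libraries lay below all 3 pbp1Δ libraries, which is 56% of the members against 22.8% of all entries, and in none did they lie above. An unadjusted p below 0.05 was found for 29 members, a level for which the share of all entries is not given here. Without the first pbp1Δ library and the second pab1Δpbp1Δ library, a choice made after seeing the data, 12 of the 16 calls remained and no other member was called, while the median moved to -0.18 and 37 members stayed below 0. The count also depended on the test, with 10 members called by edgeR's quasi-likelihood test and 4 by limma on log2(FPKM + 1). The share of all entries that these tests called, or that was called without both libraries, is not given here.

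**Figure D3:**
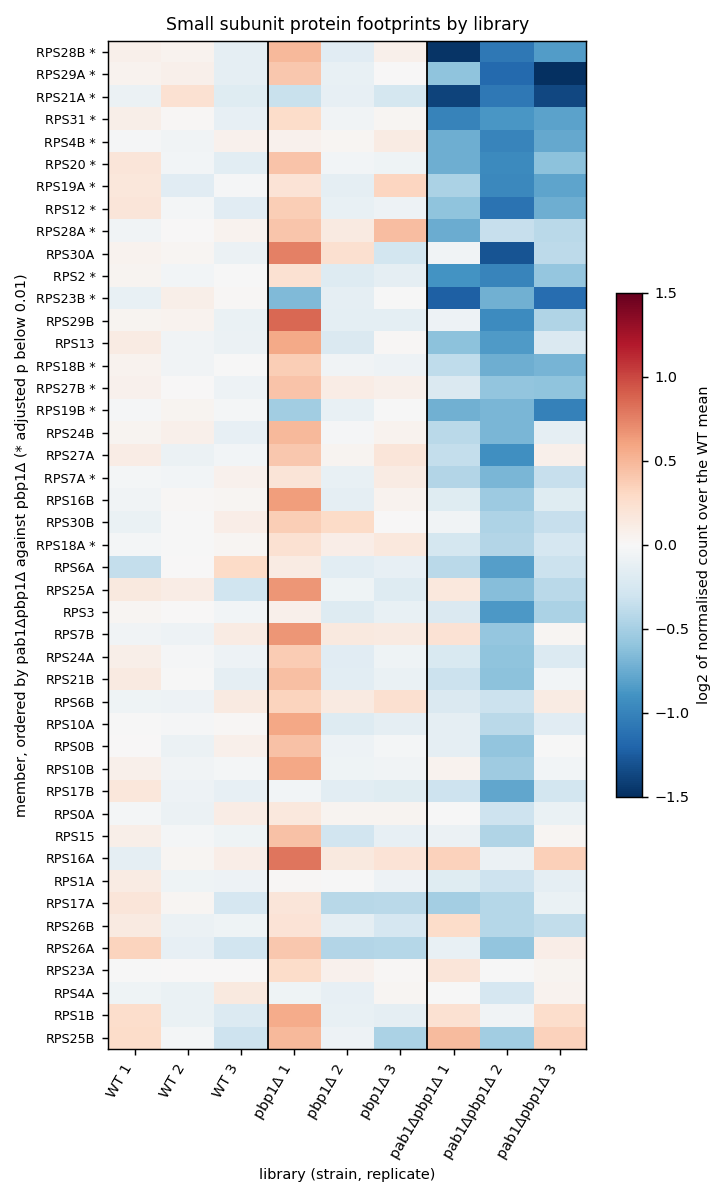
Normalised counts of 45 of the 50 members in each of the 9 libraries, as log2 over the WT mean of the same gene, from blue (lower) to red (higher). Members are ordered by the log2 fold change of pab1Δpbp1Δ against pbp1Δ, and an asterisk marks the 16 called lower. The 9 uppermost rows are blue in all 3 pab1Δpbp1Δ libraries, and so are some rows below them, such as those of RPS2 and RPS23B. Farther down these libraries differ from each other, with the second holding the lowest of the 9 values in 33 of the 45 rows, and the first pbp1Δ library is above the WT mean in 40 rows.

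The 8 single-copy genes have no second RPS copy between which reads would be divided. Of these, 4 fell (RPS31, RPS20, RPS12 and RPS2), and the median log2 fold change of the 8 was -0.76. RPS31 encodes a fusion of ubiquitin to the ribosomal protein, so its translation supplies both. It lies on chromosome XII, 498947 to 499405 of the R64 assembly. Its normalised counts were 5919, 5641 and 5118 in WT, 6727, 5377 and 5685 in pbp1Δ, and 2786, 3032 and 3175 in pab1Δpbp1Δ. The 3 pab1Δpbp1Δ values were close to each other and all far below the rest, at a mean of 0.50 of the pbp1Δ level (log2 fold change -0.999 ± 0.15 (SE), adjusted p = 1.02e-09). RPS20 encodes a head protein that the ubiquitin ligase Hel2 modifies when ribosomes collide. The counts of this gene were 5549, 4787 and 4388 in WT, 6626, 4754 and 4691 in pbp1Δ, and 2950.3, 2524 and 3212 in pab1Δpbp1Δ, with the first pbp1Δ library standing high and no overlap between the mutants (log2 fold change -0.90 ± 0.19 (SE), adjusted p = 2.16e-05).

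RPS12, whose protein sits in the beak of the head, had normalised counts of 5409, 4689 and 4240.5 in WT, 6152, 4408 and 4549.5 in pbp1Δ, and 3149.6, 2226 and 2878 in pab1Δpbp1Δ. All pab1Δpbp1Δ values were below all others (log2 fold change -0.89 ± 0.20 (SE), adjusted p = 8.34e-05). RPS2, which encodes a universally conserved protein at the mRNA entry channel and lies on chromosome VII, 277617 to 278381, had normalised counts of 17485, 16468 and 16920.5 in WT, 19884, 14788 and 15438 in pbp1Δ, and 9137, 8568 and 11314 in pab1Δpbp1Δ. Here too the groups did not overlap (log2 fold change -0.80 ± 0.18 (SE), adjusted p = 9.02e-05). Without the first pbp1Δ library the log2 fold changes of these 4 genes were -0.90, -0.72, -0.72 and -0.66, in the order RPS31, RPS20, RPS12 and RPS2, and all remained called.

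The other 4 single-copy genes did not pass the threshold, and 3 of them are described here. RPS13, for an early binder of the body, had normalised counts of 9450.5, 8375 and 8156 in WT, 12876, 7452 and 8776 in pbp1Δ, and 5664, 4824 and 7449.9 in pab1Δpbp1Δ, with the groups apart but the pbp1Δ libraries widely spread (log2 fold change -0.71 ± 0.24 (SE), adjusted p = 0.0120). Leaving out the second pbp1Δ library brought its adjusted p to 0.00698, and leaving out the third pab1Δpbp1Δ library to 0.00327. Without the first pbp1Δ library the log2 fold change of RPS13 was smaller, at -0.46 (adjusted p = 0.104), and without any of the other 3 libraries the adjusted p lay between 0.0349 and 0.0859. RPS3, whose protein lines the mRNA entry channel, had normalised counts of 12684, 12487 and 12018 in WT, 13092, 10866 and 11463 in pbp1Δ, and 10646, 6809.7 and 8951 in pab1Δpbp1Δ. The second pab1Δpbp1Δ library was its lowest, and the difference missed the threshold (log2 fold change -0.44 ± 0.19 (SE), adjusted p = 0.0657), though not when the first pab1Δpbp1Δ library was left out (adjusted p = 0.00696). Without the second pab1Δpbp1Δ library the log2 fold change of RPS3 was -0.28 (adjusted p = 0.234), and the other 4 omissions gave an adjusted p from 0.117 to 0.207. RPS15, for a head protein next to the decoding centre, had normalised counts of 9509, 8799 and 8548 in WT, 12111, 7339.9 and 8206 in pbp1Δ, and 8442, 6525 and 9169.9 in pab1Δpbp1Δ, and the groups overlapped (log2 fold change -0.21 ± 0.22 (SE), adjusted p = 0.518). Without the first pbp1Δ library its log2 fold change was 0.03.

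Among the 42 members with a paralog, 12 fell and the median log2 fold change was -0.47. The lowest was RPS28B (chromosome XII, 673131 to 673334), the gene whose mRNA is bound by its own protein together with the decapping activator Edc3 and is decapped when Rps28 is in excess. Its normalised counts were 935, 920.4 and 813 in WT, 1246, 793 and 936 in pbp1Δ, and 321, 424 and 496 in pab1Δpbp1Δ. The highest pab1Δpbp1Δ value, 496, was well below the lowest value of the other strains, 793 (log2 fold change -1.28 ± 0.23 (SE), adjusted p = 7.73e-07). Its paralog RPS28A, which encodes the same kind of small head protein, had normalised counts of 1073, 1117 and 1155 in WT, 1493, 1228 and 1538 in pbp1Δ, and 668, 877 and 841 in pab1Δpbp1Δ and fell as well, with no overlap (log2 fold change -0.85 ± 0.18 (SE), adjusted p = 2.17e-05). Rps28 was thus lower by both genes. Summed over them it showed the lowest log2 fold change of the 29 proteins (log2 fold change -1.01 ± 0.19 (SE), adjusted p = 1.16e-06).

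RPS29A (chromosome XII, 898651 to 898821) encodes a small zinc-binding protein of the head. It had normalised counts of 2791, 2844 and 2448 in WT, 3579, 2503 and 2707 in pbp1Δ, and 1768, 1198 and 955 in pab1Δpbp1Δ, lowest in the third pab1Δpbp1Δ library and without overlap (log2 fold change -1.18 ± 0.24 (SE), adjusted p = 1.65e-05). RPS29B had normalised counts of 2798, 2807 and 2541 in WT, 4947, 2462 and 2452 in pbp1Δ, and 2573, 1409.7 and 1979.8 in pab1Δpbp1Δ and missed the threshold, its first pbp1Δ value standing far above the rest (log2 fold change -0.74 ± 0.30 (SE), adjusted p = 0.0437). Without that library the log2 fold change of RPS29B was -0.32. RPS21A (chromosome XI, 551657 to 552242), for a eukaryote-specific protein of the body, had normalised counts of 2056, 2569 and 1936 in WT, 1741, 2012 and 1826 in pbp1Δ, and 833, 1038 and 846 in pab1Δpbp1Δ. Its first pbp1Δ value was the lowest of that group, unlike most members, and all pab1Δpbp1Δ values were still below it (log2 fold change -1.05 ± 0.16 (SE), adjusted p = 1.87e-09). Of the remaining calls, RPS19A and RPS19B (log2 fold changes -0.89 and -0.61), for the head protein whose human counterpart is mutated in Diamond-Blackfan anaemia, and RPS18A and RPS18B (-0.49 and -0.70), for a universal head protein at the top of the subunit, were called in both copies. RPS27B, for a zinc-binding protein, was called at -0.69, and its paralog had -0.58 (adjusted p = 0.0510).

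The smallest of the called differences were those of RPS18A, RPS7A and RPS19B. RPS18A had normalised counts of 8965, 9121 and 9324 in WT, 10705, 9807 and 10155 in pbp1Δ, and 7628, 6741 and 7682 in pab1Δpbp1Δ (log2 fold change -0.49 ± 0.13 (SE), adjusted p = 0.00125). RPS7A, whose protein is ubiquitinated by Not4, had normalised counts of 5691, 5636 and 6076 in WT, 6619.8, 5353 and 6310.4 in pbp1Δ, and 4268, 3608 and 4565 in pab1Δpbp1Δ (log2 fold change -0.57 ± 0.16 (SE), adjusted p = 0.00230). In RPS19B the counts were 1989, 2074 and 1981 in WT, 1402, 1872 and 2005 in pbp1Δ, and 1224, 1256 and 998 in pab1Δpbp1Δ (log2 fold change -0.61 ± 0.19 (SE), adjusted p = 0.00595). In all 3 genes the groups did not overlap, but their adjusted p rose above 0.01 when some single libraries were left out. For RPS18A this held without the second or the third pbp1Δ library (adjusted p = 0.0113 and 0.0176). For RPS7A it held without the first or the third pbp1Δ library or the second pab1Δpbp1Δ library (adjusted p = 0.0162, 0.0326 and 0.0184). For RPS19B it held without any one of the 6 except the first pbp1Δ library, with adjusted p from 0.0112 to 0.0796. RPS18B and RPS27B likewise missed the threshold without the second or the third pab1Δpbp1Δ library, with an adjusted p of at most 0.0144 in any alternative on counts.

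At the other end, 2 members had a log2 fold change above 0, and neither passed the threshold. RPS25B, for a head protein that internal ribosome entry sites use, had normalised counts of 1159, 933 and 773 in WT, 1334, 906 and 685 in pbp1Δ, and 1324, 666 and 1214 in pab1Δpbp1Δ, and the mutants overlapped (log2 fold change 0.12 ± 0.30 (SE), adjusted p = 0.814). RPS1B had normalised counts of 6148, 4788 and 4442 in WT, 7513, 4753 and 4657 in pbp1Δ, and 6005, 4953 and 6144 in pab1Δpbp1Δ, again overlapping (log2 fold change 0.00 ± 0.21 (SE), adjusted p = 1.000). RPS4A followed with normalised counts of 15974, 15641 and 18524 in WT, 16033, 15378 and 17003 in pbp1Δ, and 16617, 13987 and 17351 in pab1Δpbp1Δ, and its values in the 3 strains were intermingled (log2 fold change -0.03 ± 0.14 (SE), adjusted p = 0.912). The sign of each of these 3 genes turned when some single library was left out, the log2 fold changes then running from -0.0901 to 0.408 for RPS25B, from -0.126 to 0.262 for RPS1B and from -0.0863 to 0.0652 for RPS4A.

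**Figure D4:**
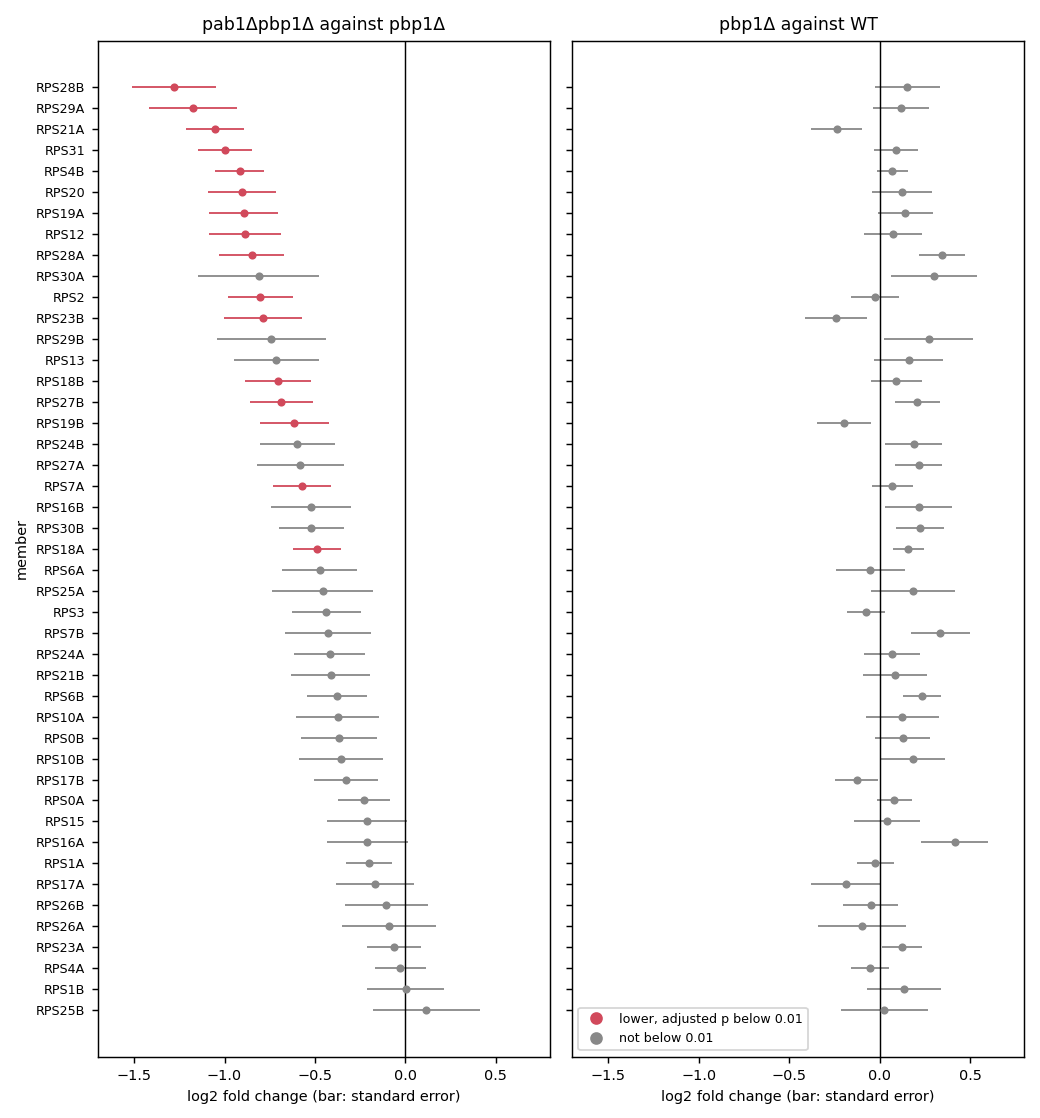
Log2 fold changes of 45 of the 50 members, on the left for pab1Δpbp1Δ against pbp1Δ and on the right for pbp1Δ against WT, with bars of 1 standard error. Members are in the order of the left panel, and red marks an adjusted p below 0.01. On the left 16 members are red and all of them are below 0, and on the right none is red and the points lie between -0.24 and 0.41.

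With the 2 copies of each pair added together before the fit, 12 of the 29 proteins fell and none rose, against 10.3% of all entries that were lower in that fit. By edgeR 6 were called, and without the first pbp1Δ or the second pab1Δpbp1Δ library 8, and the shares of all entries in these fits are not given here. The 12 were 8 proteins with a pair of genes and 4 with a single gene, and the median log2 fold change over the 29 was -0.48. Among the proteins with a pair of genes, the lowest sums were those of Rps28 (-1.01), Rps29 (-0.93) and Rps19 (-0.81). The highest was that of Rps26, at -0.09. Rps26, which touches the mRNA upstream of the start codon, and Rps1, its neighbour on the subunit platform (-0.11), were among the 8 proteins whose summed counts overlapped between the mutants, as were Rps10, Rps15, Rps16, Rps25 and Rps30. Rps7 was not called as a sum (log2 fold change -0.51 ± 0.18 (SE), adjusted p = 0.0217) though RPS7A was.

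Both copies were called in 3 pairs (RPS18, RPS19 and RPS28), 1 copy in 6 pairs (RPS4, RPS7, RPS21, RPS23, RPS27 and RPS29) and neither in 12. To compare the copies within a library, the share of copy A in the counts of its pair was taken, which does not depend on the scaling between libraries. In 5 of 21 pairs (23.8%) the pab1Δpbp1Δ and pbp1Δ libraries did not overlap in this share, which was higher in pab1Δpbp1Δ for RPS4, RPS16, RPS24 and RPS28 and lower for RPS25. Among 33 paralogous pairs of the large subunit, 45.5% did not overlap. With 3 libraries against 3, the exact two-sided permutation test cannot go below p = 0.1, and that was its value for each of the 5 pairs. Without the first pbp1Δ library 10 pairs did not overlap, and without the first or the second pab1Δpbp1Δ library 8 did not. Fewer libraries make a lack of overlap easier to reach, so these counts cannot be set against the 5. The share of large subunit pairs in these reduced sets is not given here.

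The clearest divergence was that of RPS4, a pair that encodes the same protein of the body. Copy A made up 61.1, 61.1 and 63.2% in WT, 59.8, 59.3 and 60.3% in pbp1Δ and 72.8, 73.0 and 74.2% in pab1Δpbp1Δ. The values within each strain were close, and those of pab1Δpbp1Δ stood well above both other strains. RPS4B (chromosome VIII, 504476 to 505530) carried the difference, with normalised counts of 10175, 9969 and 10777 in WT, 10800.0, 10547 and 11186 in pbp1Δ, and 6198, 5169 and 6042 in pab1Δpbp1Δ (log2 fold change -0.92 ± 0.14 (SE), adjusted p = 7.30e-10), while RPS4A was at the level given above. In the same comparison RPS23, a pair for the universal protein of the decoding centre, had an A share of 21.7, 19.7 and 20.4% in WT, 33.2, 22.8 and 20.9% in pbp1Δ and 40.7, 29.9 and 37.0% in pab1Δpbp1Δ. The first pbp1Δ library was out of line with the other 2 and overlapped pab1Δpbp1Δ, whereas WT and pab1Δpbp1Δ were apart. The counts of RPS23B were 6201, 7078 and 6747 in WT, 4213, 6103 and 6646 in pbp1Δ, and 2849, 4047 and 3031 in pab1Δpbp1Δ, below those of both other strains in every pab1Δpbp1Δ library (log2 fold change -0.79 ± 0.21 (SE), adjusted p = 0.00157). RPS23A had 1722, 1731 and 1734 in WT, 2096, 1806 and 1755 in pbp1Δ, and 1955, 1726 and 1780.4 in pab1Δpbp1Δ, and its WT values were almost identical (log2 fold change -0.07 ± 0.15 (SE), adjusted p = 0.790). Leaving out any of 4 single libraries brought the adjusted p of RPS23B above 0.01, to 0.0410 without the third pbp1Δ library, 0.0293 without the second, 0.0210 without the third pab1Δpbp1Δ library and 0.0197 without the first.

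For RPS21 the difference ran the other way, since copy A made up 30.3, 37.5 and 33.1% in WT, 22.9, 34.3 and 31.3% in pbp1Δ and 19.5, 26.9 and 16.9% in pab1Δpbp1Δ. Here the lowest pbp1Δ share fell within the range of pab1Δpbp1Δ, and RPS21B had normalised counts of 4731, 4279 and 3914 in WT, 5871, 3854 and 4009 in pbp1Δ, and 3436, 2816 and 4170.4 in pab1Δpbp1Δ (log2 fold change -0.41 ± 0.22 (SE), adjusted p = 0.143). RPS25A had normalised counts of 976, 956 and 715 in WT, 1399, 842 and 771 in pbp1Δ, and 982, 565 and 667 in pab1Δpbp1Δ (log2 fold change -0.46 ± 0.28 (SE), adjusted p = 0.212), and its share was 45.7, 50.6 and 48.0% in WT, 51.2, 48.2 and 53.0% in pbp1Δ and 42.6, 45.9 and 35.5% in pab1Δpbp1Δ. Neither RPS25 gene was called, but the shares of the mutants were apart. The log2 fold changes of RPS21B and RPS25A were -0.19 and -0.14 without the first pbp1Δ library.

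RPS28 and RPS16 also had a higher share of copy A in pab1Δpbp1Δ. The A share of RPS28 was 53.4, 54.8 and 58.7% in WT, 54.5, 60.8 and 62.2% in pbp1Δ and 67.6, 67.4 and 62.9% in pab1Δpbp1Δ, the lowest pab1Δpbp1Δ value only just above the highest pbp1Δ value, and both of its genes had been called lower. That of RPS16, a pair for a universal head protein whose tail reaches the tRNA in the P site, was 21.5, 22.7 and 23.4% in WT, 24.7, 26.1 and 24.5% in pbp1Δ and 29.6, 28.5 and 29.8% in pab1Δpbp1Δ, with the 3 strains in separate ranges although neither gene was called against pbp1Δ (log2 fold changes -0.21 and -0.52, or 0.03 and -0.26 without the first pbp1Δ library). The most uneven pair by counts, not scaled by length, was RPS6, for the protein phosphorylated downstream of TOR signalling, whose copy A made up 4.37, 5.61 and 5.85% in WT, 4.64, 4.35 and 4.19% in pbp1Δ and 4.69, 3.82 and 3.95% in pab1Δpbp1Δ. Copies of a pair are near-identical in their coding parts, and reads that match both were divided between them by estimation, so the shares carry that uncertainty.

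**Figure D5:**
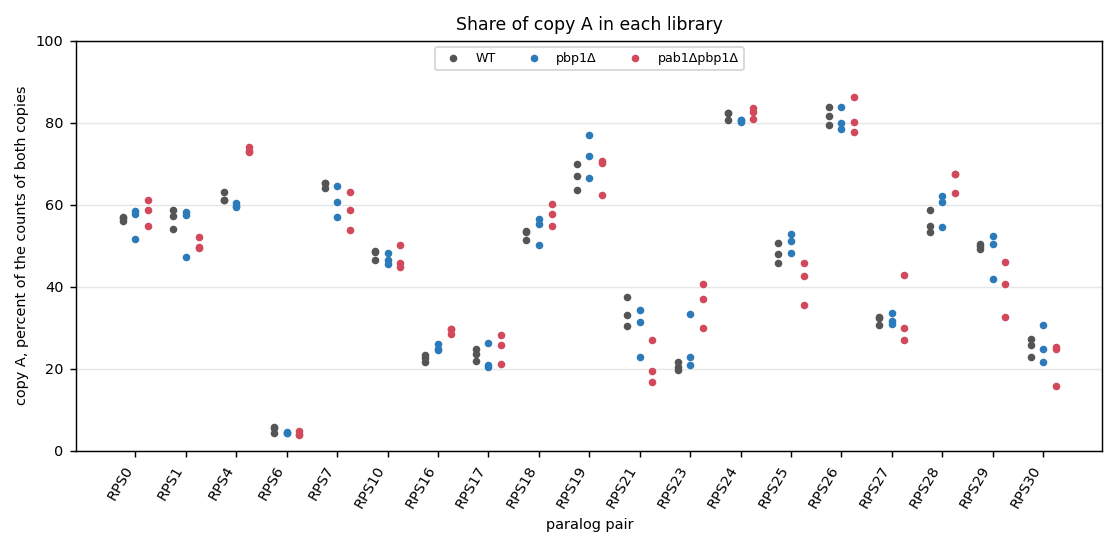
Share of copy A in the summed counts of 19 of the 21 paralogous pairs, in percent, with 1 point for each library. The pairs are ordered by protein number. The pab1Δpbp1Δ points of RPS4 lie at 72.8% to 74.2%, above all 6 other libraries at 59.3% to 63.2%, and those of RPS16 and RPS28 are also above the other 6, while those of RPS25 are below the pbp1Δ points and overlap WT.

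Members were then grouped by place in the subunit, conservation and gene structure. Of the 22 genes for head proteins 10 fell, with a median log2 fold change of -0.51, and of the 28 genes for proteins of the body and platform 6 fell, with a median of -0.45. Of the 18 genes for proteins shared with bacteria and archaea 6 fell (median -0.51), and of the other 32 genes 10 fell (median -0.47). An unspliced entry existed for 39 of the members, of which 10 fell (median -0.47), and of the 11 without one 6 fell (median -0.80). None of these differences between groups was tested. Across the 50 members, Spearman's rho between effective transcript length and log2 fold change was 0.18, and across all 5772 tested entries it was -0.28. These are descriptions across genes that share the same 6 libraries.

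Unspliced entries of the members held few counts, between 238 and 517 per library, which was 0.0922% to 0.351% of the counts of the 39 genes. By library they made up 0.173%, 0.279% and 0.127% in WT, 0.0922%, 0.196% and 0.174% in pbp1Δ, and 0.150%, 0.285% and 0.351% in pab1Δpbp1Δ. The 3 strains overlapped. RPS19B had 69.0, 74.3 and 127 unspliced counts summed over the libraries of WT, pbp1Δ and pab1Δpbp1Δ, which was 1.22%, 1.23% and 3.37% of its counts. It was not alone, since RPS29B had 25.6, 49.2 and 171 such counts, or 0.339%, 0.436% and 2.80%. Summed in the same way, unspliced RPS4A made up 0.863% for WT, 0.637% for pbp1Δ and 0.293% for pab1Δpbp1Δ. These sums are shown without a test.

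The loss of Pbp1 alone was assessed by comparing pbp1Δ with WT. No member was called by DESeq2, by edgeR's quasi-likelihood test or by limma on FPKM. By DESeq2, 4 members had an unadjusted p below 0.05, and the share of all entries at that level is not given here. Over all 5638 entries, 1.21% were called in either direction. The log2 fold changes of the members lay between -0.24 (RPS23B) and 0.41 (RPS16A) with a median of 0.09, and without the first pbp1Δ library the median was -0.06. Leaving out other single libraries gave medians from 0.07 to 0.18. In 7 members (14% against 11.7% of all entries) the pbp1Δ libraries lay above all WT libraries, namely RPS6B, RPS7B, RPS16A, RPS18A, RPS23A, RPS27B and RPS28A. RPS28A had the lowest p (log2 fold change 0.34 ± 0.13 (SE), adjusted p = 0.138), with 1419 ± 168 normalised counts in pbp1Δ and 1115 ± 40.8 in WT (SD, n = 3 each). RPS16A had normalised counts of 1298, 1456 and 1528 in WT, 2493, 1578 and 1646 in pbp1Δ, and 1817, 1344 and 1835 in pab1Δpbp1Δ and the largest log2 fold change (log2 fold change 0.41 ± 0.19 (SE), adjusted p = 0.293). The single-copy genes lay between -0.07 and 0.16.

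Against WT, the double mutant gave 18 members that fell and none that rose, where 15.3% of 5880 entries were lower. The median log2 fold change of the members was -0.35, against 0.05 over all tested entries. In 27 members (54% against 26.2% of all entries) the pab1Δpbp1Δ libraries lay below all WT libraries. This comparison shares the pab1Δpbp1Δ libraries with the previous one against pbp1Δ, so the 2 are not independent. RPS21A was lowest (log2 fold change -1.28 ± 0.17 (SE), adjusted p = 1.04e-12), followed by RPS28B (-1.12), RPS29A (-1.05) and RPS23B (-1.02). Of the 16 members called against pbp1Δ, 15 were called here, and RPS18A was not (log2 fold change -0.32 ± 0.12 (SE), adjusted p = 0.0194). RPS13 was among the 3 members called against WT alone, and the difference between the 2 comparisons was not tested. With copies summed, 12 of 29 proteins fell against WT, where 15.3% of all entries were lower in that fit. In 9 of 21 pairs (42.9%) the A share did not overlap between pab1Δpbp1Δ and WT, against 57.6% of the pairs of the large subunit.

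Genes that act on the small subunit were read in the same fits. Over all entries, 10.2% were lower in pab1Δpbp1Δ against pbp1Δ and 15.3% against WT. Of 12 factors that mature the pre-40S particle, 5 fell and none rose in pab1Δpbp1Δ against pbp1Δ, with a median log2 fold change of -0.51. BUD23, a methyltransferase of the 18S rRNA, had normalised counts of 389 ± 34.7 in pbp1Δ against 194 ± 31.8 in pab1Δpbp1Δ (SD, n = 3 each, log2 fold change -1.03 ± 0.21 SE, adjusted p = 1.33e-05). TSR1, a GTPase-like factor that blocks early joining of the large subunit, had 608 ± 164 in pbp1Δ against 312 ± 61.2 in pab1Δpbp1Δ (SD, n = 3 each, log2 fold change -0.98 ± 0.25 SE, adjusted p = 8.15e-04). ENP1, NOB1 and RRP12 were the other calls, and Nob1 is the nuclease that makes the mature end of the 18S rRNA. RIO1, an ATPase of late maturation, was the highest of this list at 156 ± 19.8 in pbp1Δ against 187 ± 44.5 in pab1Δpbp1Δ (SD, n = 3 each, log2 fold change 0.25 ± 0.26 SE, adjusted p = 0.518). Against WT 8 of the 12 fell, and in pbp1Δ against WT none was called.

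Of the 3 chaperones that escort single proteins to the nascent subunit, TSR2, which escorts Rps26, fell, with 1574 ± 237 in pbp1Δ against 969 ± 281 in pab1Δpbp1Δ (SD, n = 3 each, log2 fold change -0.71 ± 0.23 SE, adjusted p = 0.00822). The genes TSR4 for Rps2 and YAR1 for Rps3 were not called against pbp1Δ (log2 fold changes -0.30 and -0.38). RPS26A and RPS26B themselves had log2 fold changes of -0.09 and -0.11, which turned to 0.25 and 0.04 without the first pbp1Δ library. Of 6 regulators of ribosomal protein gene transcription, HMO1 fell, with 1031 ± 81.8 in pbp1Δ against 633 ± 103 in pab1Δpbp1Δ (SD, n = 3 each, log2 fold change -0.72 ± 0.18 SE, adjusted p = 4.85e-04). Of the same list, RAP1 was just short of the threshold (log2 fold change -0.63, adjusted p = 0.0110). IFH1 was the highest at a log2 fold change of 0.35 and was not called, and CRF1 was too low to be tested. Against WT 2 of the 6 regulators fell, HMO1 (-0.51) and RAP1 (-0.74). Of the ubiquitin ligases of the small subunit, MOT2, which encodes Not4, fell, with 472 ± 26.2 in pbp1Δ against 282 ± 51.8 in pab1Δpbp1Δ (SD, n = 3 each, log2 fold change -0.75 ± 0.20 SE, adjusted p = 0.00108). The ligase genes HEL2 and MAG2 were not called against pbp1Δ (-0.50 and -0.33). ASC1, for the protein on the head of the subunit that senses collided ribosomes, fell as well, with 40697 ± 2524 in pbp1Δ against 20855 ± 2109.8 in pab1Δpbp1Δ (SD, n = 3 each, log2 fold change -0.98 ± 0.14 SE, adjusted p = 1.28e-10). STM1, for a protein that clamps idle ribosomes, was not called against pbp1Δ (-0.26) but fell against WT (log2 fold change -0.45, adjusted p = 0.00445).

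The large subunit offered the closest comparison. Of its 82 genes 31 fell and none rose in pab1Δpbp1Δ against pbp1Δ, with a median log2 fold change of -0.52 and 54 genes without overlap below. Over all entries of that fit, 10.2% were lower and 22.8% lay below without overlap. Against WT 39 fell and 1 rose, with a median of -0.42, where 15.3% of all entries were lower. The small subunit members gave 16 of 50 and 18 of 50 in the same fits, with medians of -0.48 and -0.35. The 2 sets share all libraries, and no test of a difference between them was made.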

How the data were processed

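Ribosome footprints were sequenced from 9 yeast libraries. The authors isolated monosomes after RNase I digestion, trimmed reads with cutadapt 1.9, removed PCR duplicates by unique molecular identifiers with UMI-tools, aligned with Bowtie 1.0.0 to transcripts that include unspliced forms, and quantified with RSEM 1.3.0, the versions being those of the submitters' processing notes. The values deposited for each isoform and each gene were RSEM expected counts, in which a multiply matching read is divided. FPKM values were deposited beside them. Each column was mapped to a sample by its name and 0 columns were left out. Replicates of a group differed beyond sampling noise (chi-square per degree of freedom 5.88 to 44.9) and were counted separately.

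Gene names and coordinates came from RefSeq for R64, the build named in the processing notes, and 6259 of 6952 entries matched a locus tag. The isoform expected counts, which are not whole, were rounded before a comparison with DESeq2 1.42.0 (R 4.3.3) over the 6 libraries of a pair, with 0.01 as the level of independent filtering and as the threshold on p adjusted by Benjamini-Hochberg over all entries tested. These settings follow the study's methods. Sums of paralogs were fitted in a table with each pair replaced by its sum. Effective lengths were derived from expected counts and FPKM. The pipeline was tested on simulated counts that held no outlier library and no reads divided between paralogs, so that test does not cover these. A share of 0 would allow up to 3 counts per library.

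Members, lists and the naming rule were chosen with earlier results of these data known. Values in every library were given for the single-copy genes, the 6 called members with the lowest and the 3 with the highest log2 fold change in pab1Δpbp1Δ against pbp1Δ, the 3 highest members, and the 5 pairs of at least 100 mean normalised counts whose copies differed most. Some genes that this rule covers are not reported here, and they remain in the counts and medians. RPS16A, RPS28A and RPS29B, and the pairs RPS6, RPS16 and RPS28, were added after their values were seen, as were YAR1 and HEL2. Of the other lists, called genes and the lowest and highest member were eligible. Alternatives were edgeR 4.0.16, limma 3.58.1 on log2 FPKM with pseudocounts of 1 and 0.1, other scalings, filters and tables, a fit on all 9 libraries, the replicate block, and each library left out.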

Additional observations from a re-analysis of the deposited data

How the results depend on the processing

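Members called lower in pab1Δpbp1Δ against pbp1Δ numbered 16, against 10 with edgeR, 4 with limma on log2(FPKM + 1) and on log2(FPKM + 0.1), 5 with limma at a mean FPKM of at least 1, and 12 to 17 with 1 library left out. The 16 alternatives on counts called 10 of the 16 members in every case. The median log2 fold change ranged from -0.59 to -0.34 with 1 library left out, and was -0.18 without the first pbp1Δ and second pab1Δpbp1Δ libraries. Paralog sums called numbered 12, against 6 with edgeR and 8 to 12 with 1 library left out. Against WT, 18 became 8, 8 and 10 with the 3 limma settings and 12 to 19 with 1 library left out (median -0.44 to -0.24). In pbp1Δ against WT the count was 0 under every alternative run, and the median ranged from -0.057, without the first pbp1Δ library, to 0.18. Pairs with separate A shares numbered 5, against 10 without the first pbp1Δ library, 8 without the first or the second pab1Δpbp1Δ library, and 5 to 10 with any 1 library left out. A lack of overlap is easier to reach with fewer libraries. Shares of summed FPKM were 9.22% in WT, 9.48% in pbp1Δ and 7.27% in pab1Δpbp1Δ, and leaving out a library moved the share of counts to 4.998% to 5.27%, 4.97% to 5.70% and 4.08% to 4.59%. The share of all entries called under each of these alternatives is not given here, and the causes were not tested.

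The samples were not treated as paired by replicate number in the main fits. Deviations of same-numbered libraries correlated between -0.11 and 0.30, and whether such libraries shared a batch was not tested. With the replicate block, 24 members were called against pbp1Δ (median -0.49), 16 paralog sums, 0 in pbp1Δ against WT and 19 against WT, and RPS3 and RPS13 were among those that passed the threshold. How many of all entries were called with the block is not given here. Total counts as scaling shifted all log2 fold changes by 0.12.

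Directions of uncalled members turned. RPS15 was -0.356 to 0.035 with 1 library left out. RPS4A was 0.087 with total counts and -0.0863 to 0.0652 with 1 library left out. RPS23A was 0.0502 with total counts and -0.121 to 0.0172 with 1 library left out. RPS25B was -0.0901 to 0.408 with 1 library left out. RPS1B was -0.0122 with edgeR, -0.012 with TMM, -0.0156 without ribosomal proteins in the size factors and -0.126 to 0.262 with 1 library left out. Without the first pbp1Δ library, RPS16A was 0.0303, RPS17A 0.0542, RPS26A 0.247 and RPS26B 0.0374. FPKM values give no depth, and the uncertainty of dividing reads between paralogs was not measured.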
